A study of Mus musculus with 15 samples.

Results

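The ligands of the EGF receptor were followed at the RNA level in laser-microdissected lung tissue of SP-C/c-raf mice, which carry c-raf-1 under the promoter of surfactant protein C, a gene of alveolar type 2 cells. The members are Areg (amphiregulin), Ereg (epiregulin), Btc (betacellulin), Hbegf (heparin-binding EGF-like growth factor), Tgfa (transforming growth factor alpha) and Egf (epidermal growth factor), and every probe set that the array assigns to 1 of these genes and to no other was taken. This gave 10 probe sets of 6 genes, out of 45037 probe sets and 18194 named genes. The annotation used here does not list the probe set of Areg, which was named from the supplementary tables of the study.

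The 15 arrays fall into 3 groups of 5. Dysplasia is tissue from dysplastic foci of SP-C/c-raf mice aged 5 to 7 months, in the C57BL/6 background. Transgenic is morphologically unaltered lung tissue of the same dysplasia-bearing SP-C/c-raf mice, so that these groups share the transgene. Non-transgenic is lung of wild-type littermates aged 7 to 10 months, and age and genotype therefore cannot be told apart in any comparison with this group. The question asked of the ligands is how their transcripts differ between the lesion, the unaltered tissue beside it and lung without the transgene.

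Ligands of this family are made as membrane-anchored precursors, and metalloproteases of the Adam family or rhomboid proteases cut them free. The released ligand binds Egfr, which then pairs with a second receptor of the ErbB family and signals through Ras, Raf, Mek and Erk. Areg, Tgfa and Egf bind Egfr, whereas Ereg, Btc and Hbegf bind Egfr and also Erbb4. In the lung these ligands act on epithelial growth and on repair after injury.

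The sequence before the transcription start is shown for the 3 ligands whose transcripts differed between groups and for which RefSeq's promoter table, on GRCm38.p6, holds an entry; the table holds 4 of the 6 members. Each is the 250 bases up to the start, written 5′ to 3′ on the strand of the gene, with motif matches in capitals. The window of Areg is chr5:91139349-91139598 on the plus strand, that of Btc is chr5:91402995-91403244 on the minus strand and that of Tgfa is chr6:86194972-86195221 on the plus strand.
Areg: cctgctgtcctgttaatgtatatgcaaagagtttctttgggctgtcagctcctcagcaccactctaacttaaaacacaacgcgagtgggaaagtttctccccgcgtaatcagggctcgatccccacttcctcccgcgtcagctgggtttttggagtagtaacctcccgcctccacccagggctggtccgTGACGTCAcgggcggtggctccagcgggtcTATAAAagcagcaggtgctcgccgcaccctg
Btc: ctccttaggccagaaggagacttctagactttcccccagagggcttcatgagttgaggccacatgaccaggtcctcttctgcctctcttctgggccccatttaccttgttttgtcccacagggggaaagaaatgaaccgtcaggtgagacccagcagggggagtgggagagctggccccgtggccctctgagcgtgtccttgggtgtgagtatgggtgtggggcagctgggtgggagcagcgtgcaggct
Tgfa: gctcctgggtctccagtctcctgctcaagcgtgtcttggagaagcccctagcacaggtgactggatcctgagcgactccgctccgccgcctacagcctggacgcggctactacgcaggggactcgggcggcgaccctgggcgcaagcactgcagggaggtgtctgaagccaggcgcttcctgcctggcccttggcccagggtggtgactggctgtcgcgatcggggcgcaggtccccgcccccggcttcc

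On either strand 4 motifs were searched: TGACGTCA, the cAMP response element, TGACTCA, the AP-1 site, TATAAA, the TATA box, and CCGGAAG, an Ets core. Areg held TGACGTCA from 61 to 54 bases and TATAAA from 31 to 26 bases before its start, and these matches do not overlap. Among 32851 promoter windows of the same length, 1.55% held TGACGTCA, 12.4% TATAAA, 4.46% TGACTCA and 6.91% CCGGAAG. The windows of Btc and Tgfa held none of these letters, which says nothing about the factors themselves.

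Signal is the value of a probe set in array units after each array was scaled to a target of 500, and mean signal per array ran from 692 to 775. A probe set entered the tests when its signal averaged more than 100 over all 15 arrays, the tests were run on log2(signal + 50), and an adjusted p under 0.05 was called. The scale does not allow the level of 1 probe set to be set against that of another. Among the 10 ligand probe sets, 6 of 5 genes passed the signal limit, and the same 6 had a mean above 100 over the 10 arrays without dysplasia. Egf was too dim to be tested.

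Several properties of the arrays moved with the groups. All 16 endothelial markers tested were lower in dysplasia than in transgenic tissue, where their summed signal ran from 28674 to 41060 against 78716 to 98426, and none of them was under 50 on all arrays. Lower signals in dysplasia were also called for 6 of 10 alveolar type 1, 6 of 12 fibroblast and 4 of 4 neutrophil markers. The same call was made for 4 of 4 mesothelial, 4 of 4 B cell, 3 of 5 smooth muscle and 2 of 6 T and NK cell markers. Kit, the only mast cell and basophil marker tested, was lower as well. Of 9 alveolar type 2 markers 1 was higher and none lower. Over all probe sets tested 15.3% were called higher and 17.9% lower. Some markers went up: 3 of 6 club cell markers were higher and none lower. Of 8 ciliated cell markers 4 were bright enough to test, and 3 of these were higher and 1 lower. Of 12 macrophage markers 3 were higher and 6 lower, and 1 alveolar type 1 marker, Aqp5, was higher. Against non-transgenic lung 16 of 16 endothelial and 5 of 5 smooth muscle markers were lower in dysplasia. There 4 of 9 alveolar type 2 markers were higher and none lower, and 4 of 12 macrophage markers were higher and 3 lower. None of 6 club cell markers was called there, and of 4 ciliated cell markers 1 was higher and 1 lower. Over all probe sets tested 20.7% were higher and 23.3% lower in that comparison. The summed signal of the alveolar type 2 markers, which check the labelled tissue, was 128042 to 212520 in dysplasia, 120208 to 195166 in unaltered tissue and 108929 to 145511 in non-transgenic lung. In such bulk tissue a smaller number of cells of a type and less RNA per cell cannot be told apart, and the part of cell composition in the ligand results was not tested. The median actin 5' to 3' signal ratio, a sign of RNA quality, was 57.1% over the dysplasia arrays, 38.9% over the transgenic and 31.0% over the non-transgenic arrays. Transgenic 2 carries a tissue entry naming tumor beside a title that places it with unaltered tissue, and dysplasia 4 held both Xist, a transcript of female cells, at 9674, and the Y-linked Eif2s3y, at 495. Only 1 of the 5 non-transgenic mice was male by these genes. By contrast, every transgenic array except transgenic 3 was male by them, and so were dysplasia 1, 2 and 5. Sex thus differed largely along with genotype in the comparisons with non-transgenic lung.

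In dysplasia compared with transgenic tissue, 5 of the 6 ligand genes were higher and the sixth, Egf, was too dim to test. Areg and Ereg, growth factors of epithelial repair, rose 15.4-fold and 12.3-fold by ratio of group means. Btc rose 3.25-fold, Hbegf 2.22-fold on its more even probe set and Tgfa 2.06-fold. All 6 probe sets tested were called higher, while 33.2% of all 21658 probe sets tested were called in either direction, 15.3% higher and 17.9% lower. In 5 of the 6 the groups did not overlap, against 11.8% of all probe sets tested that lay wholly higher in dysplasia. The median log2 change over the 6 was 1.29, beside -0.01 over all probe sets tested.

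**Figure D1:**
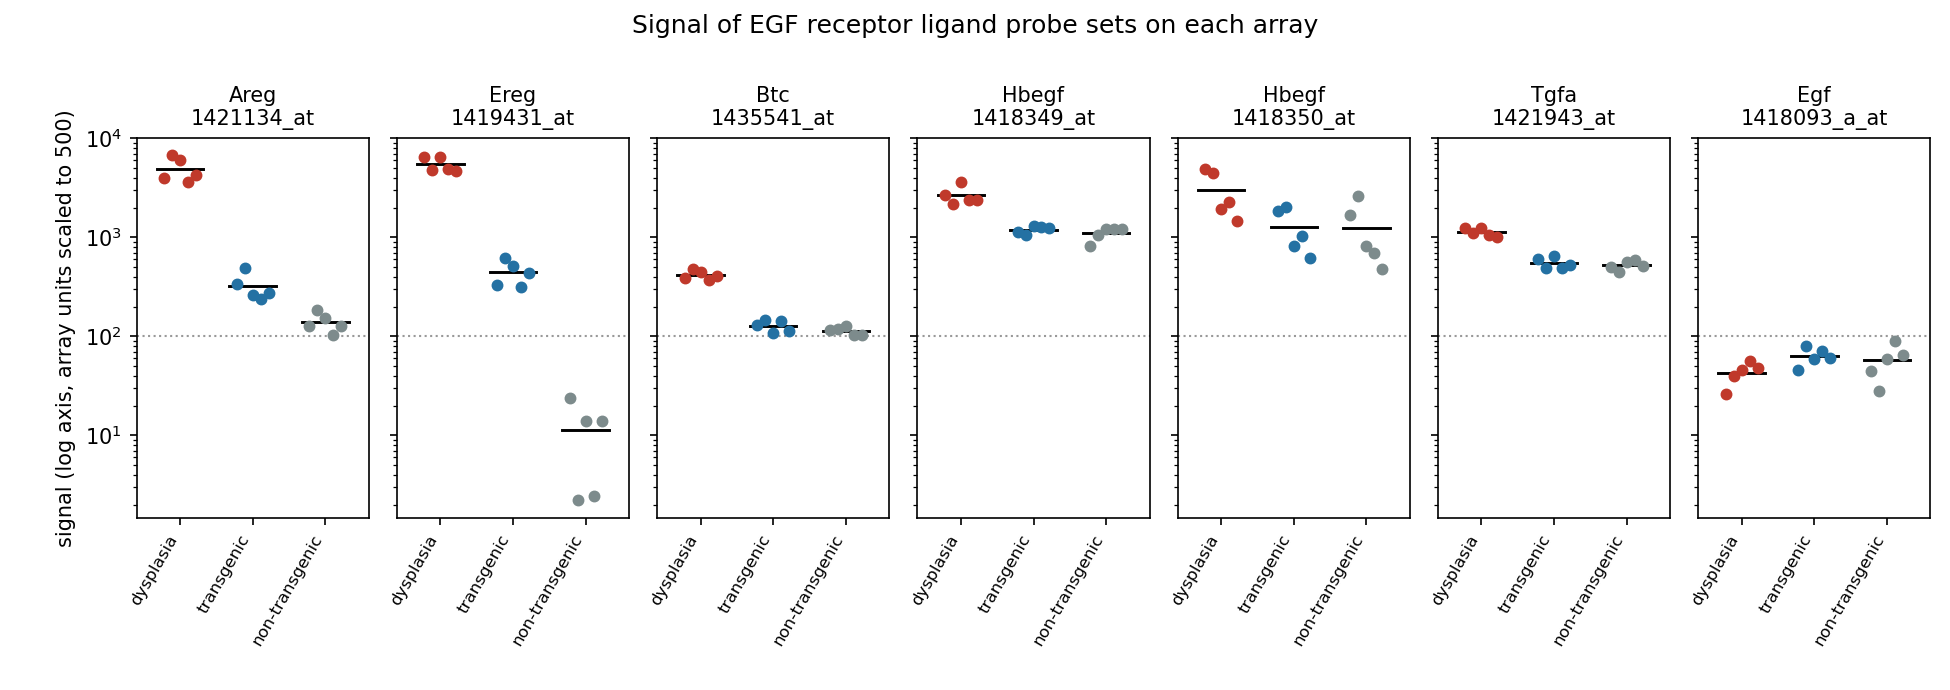
Signal (log axis, array units) of 7 ligand probe sets on each of the 15 arrays, with dysplasia in red, transgenic in blue and non-transgenic in grey; points run from array 1 to 5 within a group, black lines are group means and the dotted line is the signal of 100. Areg and Ereg read 3594 or more on every dysplasia array and 625 or less on every other array, and Ereg reads 24.0 or less on every non-transgenic array.

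Areg probe set 1421134_at had signals of 3991, 6750, 6093, 3594 and 4283 on the 5 dysplasia arrays. On the transgenic arrays it had 334, 496, 264, 238 and 274, and on the non-transgenic arrays 127, 185, 153, 103 and 127. No 2 groups overlapped: all dysplasia arrays were at least 7.24 times the highest transgenic array, and the lowest transgenic array exceeded the highest non-transgenic one. The group means were 4942 ± 1392 (SD, n = 5), 321 ± 104 and 139 ± 31.2. Dysplasia exceeded transgenic tissue by 3.74 ± 0.22 (SE) on the log2 scale (limma, adjusted p = 1.03e-06) and non-transgenic tissue by 4.70 ± 0.19 (adjusted p = 3.39e-08). Transgenic 2, the array with the conflicting labels, held the highest Areg signal of its group, and without it the change between dysplasia and transgenic tissue was 3.89.

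Ereg probe set 1419431_at had signals of 6412, 4830, 6521, 4850 and 4705 in dysplasia, 331, 625, 513, 313 and 436 in transgenic tissue and 24.0, 2.21, 14.1, 2.44 and 13.8 in non-transgenic tissue. The order dysplasia, transgenic, non-transgenic held without overlap: the lowest dysplasia array was 7.53 times the highest transgenic array, and the lowest transgenic array, at 313, stood far above the highest non-transgenic array, at 24.0. Group means were 5464 ± 918, 443 ± 130 and 11.3 ± 9.18 (SD, n = 5). The log2 change between dysplasia and transgenic tissue was 3.51 ± 0.18 (SE; limma, adjusted p = 7.95e-07), and without transgenic 2, again the highest of its group, it was 3.63. On the non-transgenic arrays only 5.13% to 25.0% of probe sets had lower signals, so the base of any fold against this group lies near background and its size is not firm. Between dysplasia and non-transgenic tissue the log2 change was 6.49 ± 0.14 with the offset of 50 (adjusted p = 5.88e-10) and 9.47 with no offset.

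Btc probe set 1435541_at, which measures a ligand of Egfr and Erbb4, gave 390, 479, 445, 367 and 403 in dysplasia. It gave 130, 148, 108, 144 and 112 in unaltered tissue and 117, 118, 126, 104 and 103 in non-transgenic lung. Dysplasia lay wholly above both other groups, which overlapped each other. The change from transgenic tissue was 1.39 ± 0.10 (SE) on the log2 scale (limma, adjusted p = 4.57e-06), and from non-transgenic tissue 1.51 ± 0.09 (adjusted p = 4.72e-07). A second Btc probe set, 1421161_at, was too dim to test, with group means of 43.1, 18.8 and 18.0, and its highest value was 114 on dysplasia 2.

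Tgfa probe set 1421943_at, which measures a ligand of Egfr that many carcinoma cells make themselves, read 1231, 1114, 1257, 1063 and 1007 in dysplasia. It read 606, 494, 641, 486 and 520 in unaltered tissue and 497, 445, 568, 592 and 520 in non-transgenic lung. Dysplasia was again above every array of both other groups, and these overlapped. The log2 change from transgenic tissue was 0.99 ± 0.11 (SE; limma, adjusted p = 4.01e-05), and from non-transgenic tissue 1.05 ± 0.10 (adjusted p = 9.60e-06). The other Tgfa probe sets were dim and did not follow this pattern: 1450421_at had means of 86.3, 81.1 and 83.9 and 1421942_s_at means of 29.5, 36.2 and 41.9 in dysplasia, unaltered transgenic and non-transgenic tissue, with overlapping groups.

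Hbegf, whose product binds heparan sulfate and signals to neighbouring cells already from the membrane, is measured by a pair of probe sets that differ in their spread. On 1418349_at the dysplasia arrays gave 2688, 2156, 3662, 2362 and 2406, the transgenic arrays 1125, 1062, 1290, 1270 and 1236 and the non-transgenic arrays 819, 1067, 1215, 1203 and 1223. Dysplasia did not overlap the other groups, and the log2 change was 1.10 ± 0.14 (SE) from transgenic tissue (limma, adjusted p = 0.000114) and 1.22 ± 0.16 from non-transgenic tissue (adjusted p = 8.53e-05).

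The other Hbegf probe set, 1418350_at, ran over a wide range inside every group. Its signals were 4864, 4425, 1934, 2297 and 1450 in dysplasia, 1855, 2026, 818, 1039 and 613 in unaltered tissue and 1668, 2627, 809, 699 and 484 in non-transgenic lung. In each group arrays 1 and 2 were the highest, and dysplasia 5 lay below the highest arrays of both other groups. The log2 change from transgenic tissue was close in size to that of the other probe set, 1.19, but with an SE of 0.40 (limma, adjusted p = 0.0393), and from non-transgenic tissue it was 1.32 ± 0.47 (adjusted p = 0.0390). Arrays 1 and 2 also had the highest actin ratios of their groups, 69.9% and 75.2% in dysplasia, 46.3% and 63.4% in unaltered tissue and 54.6% and 72.8% in non-transgenic lung. With the actin ratio as a covariate the change from transgenic tissue was 0.81 ± 0.19 (adjusted p = 0.00542), and that of 1418349_at was 1.16 ± 0.13 (adjusted p = 5.97e-05). Both Hbegf probe sets thus remained called with that term.

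**Figure D2:**
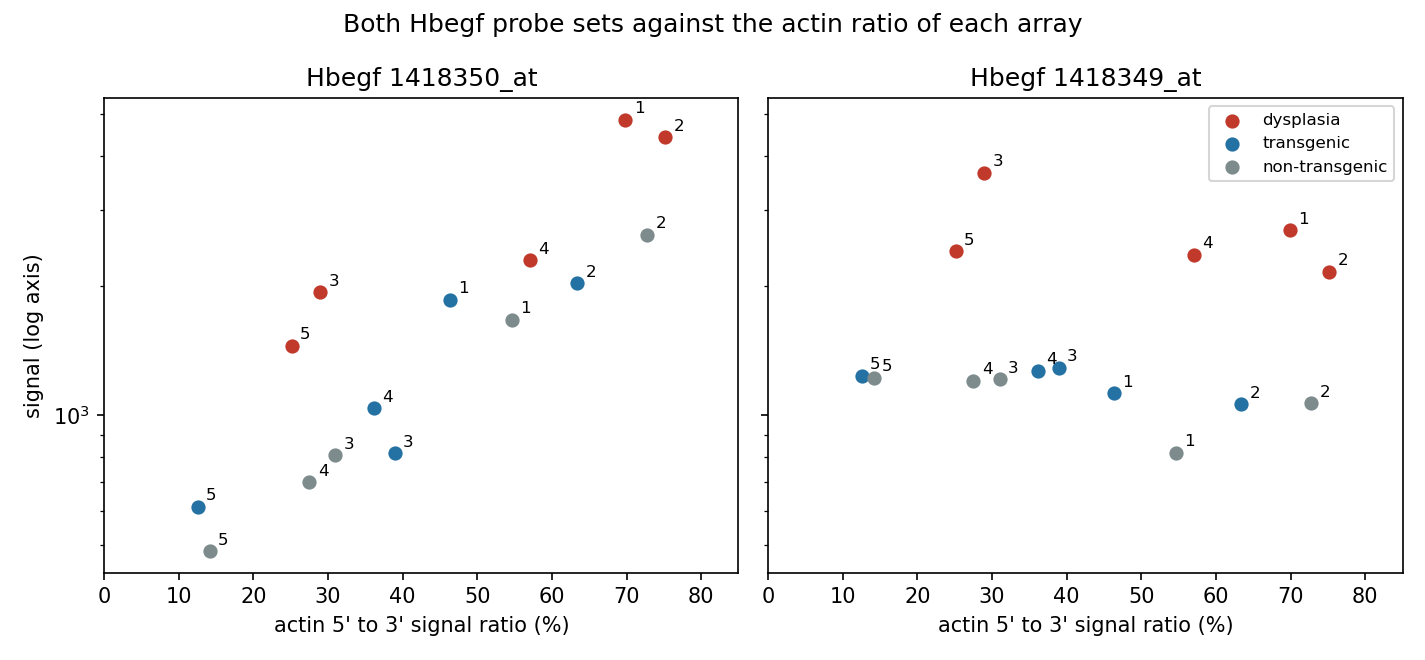
Signal (log axis) of the Hbegf probe sets 1418350_at, left, and 1418349_at, right, against the actin 5' to 3' signal ratio in percent; each point is 1 of 15 arrays, numbered 1 to 5 within dysplasia (red), transgenic (blue) and non-transgenic (grey). On the left, arrays 1 and 2 have the highest signals and the highest ratios of every group, whereas on the right every dysplasia array lies above every other array.

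Arrays of dysplasia and transgenic tissue carry numbers from 1 to 5. No source says that a number marks a mouse, and the Xist and Y-linked signals of number 4 disagreed between these groups. Each of the 6 tested ligand probe sets was higher in dysplasia in 5 of 5 pairs of the same number. For the 5 probe sets whose groups did not overlap, any pairing of the arrays gives this count. Only for Hbegf 1418350_at could it have come out otherwise. The ratio within a number ran from 11.9 to 23.0 for Areg, from 7.73 to 19.4 for Ereg, from 2.55 to 4.12 for Btc and from 1.94 to 2.25 for Tgfa. For Hbegf it ran from 1.86 to 2.84 on 1418349_at and from 2.18 to 2.62 on 1418350_at. The probe set with the widest spread within groups therefore had a narrow range of ratios within numbers. With the number as a block its change of 1.19 had an SE of 0.07 (limma, adjusted p = 7.80e-06).

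Egf, the founding member of the family, was dim in all groups. Its probe set 1418093_a_at gave 26.1, 39.4, 45.3, 56.5 and 47.7 in dysplasia, 46.1, 80.8, 59.7, 71.3 and 59.9 in unaltered tissue and 44.7, 28.0, 58.6, 90.3 and 64.3 in non-transgenic lung. The groups overlapped, and dysplasia lay below transgenic tissue in 5 of 5 numbers. When the signal limit was dropped, the log2 change was -0.29 ± 0.11 (SE; limma, adjusted p = 0.109).

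In transgenic compared with non-transgenic tissue the ligands separated into Areg and Ereg, which were higher, and Btc, Hbegf and Tgfa, which were not called. Ereg rose by 2.98 ± 0.18 (SE) on the log2 scale (limma, adjusted p = 3.71e-05), or 5.82 with no offset, over a base near background. Areg rose 2.32-fold, a log2 change of 0.95 ± 0.18 with a 95% interval from 0.56 to 1.34 (adjusted p = 0.0270). Thus 2 of the 6 probe sets tested were called, against 1.26% of all probe sets tested in either direction, 1.17% higher and 0.0831% lower, and both lay wholly above non-transgenic tissue, as did 3.23% of all probe sets tested. In the same comparison 3 of 12 macrophage markers were called higher, Mrc1 by 1.04, Cd68 by 0.96 and Siglecf by 1.13 on the log2 scale. The summed signal of all 12 macrophage markers was 38487 to 45398 in unaltered tissue and 27645 to 40895 in non-transgenic lung. The part of macrophages in the change of Areg and Ereg was not tested. Of the markers of the other cell types only Myh11, of smooth muscle, was called, at -0.37.

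The call of Areg in unaltered transgenic tissue changed when single arrays were left out or Xist was a covariate. It was lost without transgenic 1 (adjusted p = 0.0626), transgenic 3 (0.0602) or non-transgenic 1 (0.0818), 3 (0.0713), 4 (0.0695) or 5 (0.0540), and without number 4 in both groups (0.0851), with log2 changes from 0.88 to 1.0. With Xist as a covariate the change was 0.90 and the adjusted p 0.178, and that of Ereg was 2.97 with an adjusted p of 0.00219. Without transgenic 2 Areg was still called, at 0.80 (adjusted p = 0.0318), and Ereg at 2.86 (adjusted p = 0.000147).

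For the other ligands the same comparison gave small changes with intervals around 0. The log2 change was 0.12 for Btc, with a 95% interval from -0.08 to 0.32 (limma, adjusted p = 0.660), and 0.06 for Tgfa, from -0.17 to 0.29 (adjusted p = 0.901). For Hbegf it was 0.12, from -0.14 to 0.38, on 1418349_at (adjusted p = 0.764) and 0.13, from -0.88 to 1.13, on 1418350_at (adjusted p = 0.966). The median over the 6 probe sets was 0.13, beside -0.02 over all probe sets tested. The upper end of the interval of 1418350_at thus came close to its change in dysplasia, whereas those of Btc, Tgfa and 1418349_at stayed well below theirs.

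In dysplasia compared with non-transgenic tissue all 6 probe sets tested were higher, by a median of 1.42 on the log2 scale. Of all probe sets tested 44% were called in either direction in this comparison, 20.7% higher and 23.3% lower, and 5 of the 6 again did not overlap, against 15.8% of all probe sets tested. By ratio of means Areg was 35.6-fold, Btc 3.68-fold, Hbegf 2.40-fold on 1418349_at and Tgfa 2.16-fold higher. This comparison shares its dysplasia arrays with the one against transgenic tissue and its non-transgenic arrays with the one before it.

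**Figure D3:**
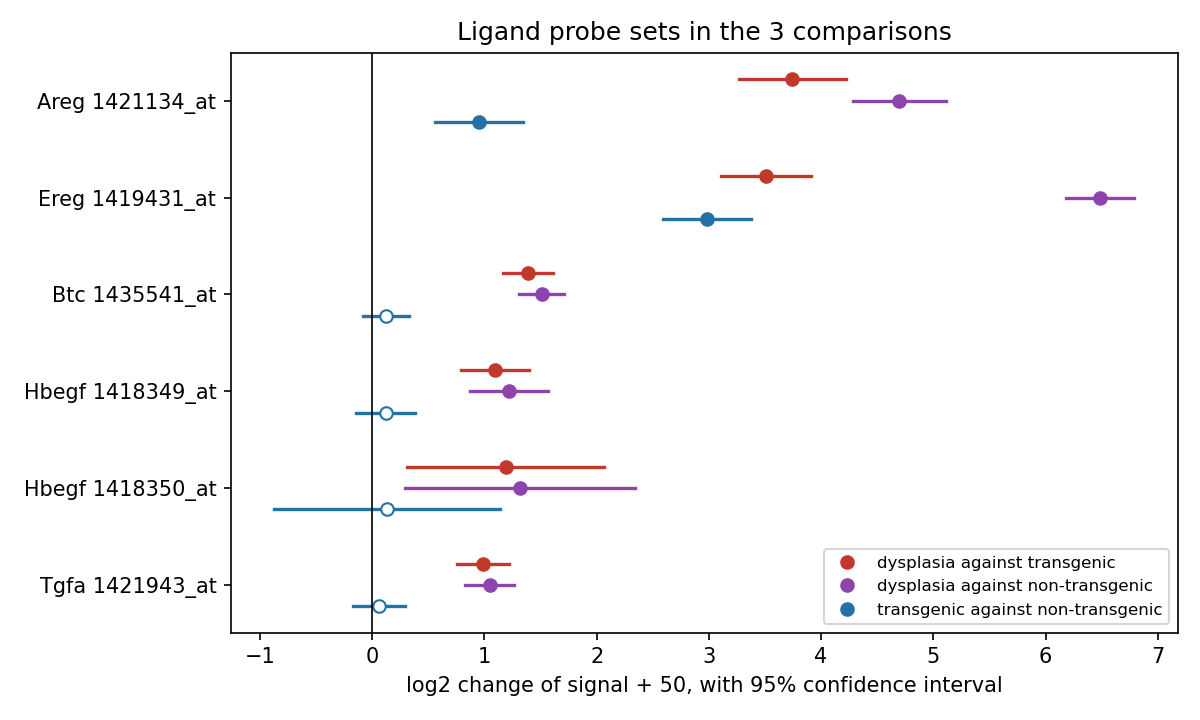
Change of log2(signal + 50) of the 6 tested ligand probe sets with its 95% confidence interval, for dysplasia against transgenic (red), dysplasia against non-transgenic (purple) and transgenic against non-transgenic (blue), n = 5 arrays a group; filled points passed an adjusted p of 0.05 in limma. Areg and Ereg alone among these have filled points in all 3 comparisons, and the interval of Hbegf 1418350_at is the widest in each.

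The receptors of these ligands did not move in 1 direction. Egfr, the shared receptor, was lower in dysplasia, whereas Erbb2, which has no ligand of its own and pairs with other members, and Erbb3, whose kinase is weak, were higher. Egfr probe set 1435888_at had means of 196 ± 28.2, 553 ± 97.2 and 648 ± 82.3 (SD, n = 5) in dysplasia, unaltered transgenic and non-transgenic tissue, and fell by 1.28 on the log2 scale between transgenic tissue and dysplasia (limma, adjusted p = 2.51e-05). Its other tested probe sets, 1424932_at and 1460420_a_at, had means of 92.4 and 156 in dysplasia, below the 261 and 251 of transgenic tissue. Erbb2 had means of 1197 ± 171, 516 ± 23.9 and 418 ± 56.8, a log2 change of 1.13 (adjusted p = 1.78e-05), and Erbb3 had 4067 ± 379, 1764 ± 190 and 1408 ± 159, a log2 change of 1.18 (adjusted p = 1.21e-05). Erbb4, the second receptor of Ereg, Btc and Hbegf, was under 50 on all arrays. Against non-transgenic lung the changes in dysplasia were -1.5 for Egfr, 1.41 for Erbb2 and 1.5 for Erbb3, all called, and none of the 3 receptors was called between transgenic and non-transgenic tissue.

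Among the other ligands of the ErbB family 1 of 5 was bright enough to test. Nrg2, a neuregulin that binds Erbb3 and Erbb4, was lower in dysplasia. Its means were 59.9 ± 20.1 there, 115 ± 22.5 in unaltered tissue and 155 ± 59.4 in non-transgenic lung. It averaged 110 over the 15 arrays, so that it entered the tests only through the groups in which it was high. The log2 change of Nrg2 from transgenic tissue was -0.59 (limma, adjusted p = 0.00737), with overlapping groups. This call was lost in male mice only (adjusted p = 0.0666). Epgn (epigen), which binds Egfr, was dim, with means of 89.4 ± 20.9 in dysplasia, 28.7 ± 13.8 in unaltered tissue and 16.9 ± 14.2 in non-transgenic lung. Its dysplasia arrays, from 68.0 to 117, lay above all transgenic arrays, of which the highest was 43.7. Nrg1, a neuregulin that binds Erbb3 and Erbb4, was dim as well and went the other way, from 14.7 to 24.7 in dysplasia against 37.5 to 71.9 in unaltered tissue and 50.5 to 82.1 in non-transgenic lung. Neither was tested.

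Of 11 genes of ligand release and transport, all tested, 2 were higher and 1 was lower in dysplasia than in transgenic tissue, a share below the 33.2% called over all probe sets tested. The principal sheddases of the EGF ligands, Adam17 and Adam10, had log2 changes of 0.14 and 0.04 and were not called. Rhbdl2, a rhomboid protease that cuts within the membrane, had means of 1267 ± 387, 138 ± 71.8 and 19.5 ± 4.63 in dysplasia, unaltered transgenic and non-transgenic tissue. Over the 10 arrays without dysplasia it averaged 78.7, so that it entered the tests only through the group in which it was high. Its log2 change was 2.82 from transgenic tissue to dysplasia (limma, adjusted p = 2.28e-05) and 1.37 between transgenic and non-transgenic tissue (adjusted p = 0.0102), the only gene of this list called there. With Xist as a covariate the latter call was lost (1.38, adjusted p = 0.0786). Adam12, a metalloprotease with Hbegf among its substrates, had means of 147 ± 38.8, 74.2 ± 27.7 and 94.9 ± 31.0. It too entered the tests only through dysplasia, with a mean of 84.6 without it. Its log2 change of 0.68 (adjusted p = 0.0142) was not called in male mice only (0.0534). Nkd2, which carries Tgfa to the cell surface, was at -0.57 (adjusted p = 0.0334), and this call was lost under 12 of 23 alternative settings. Against non-transgenic lung 4 of the 11 were higher in dysplasia and 1 lower, a share close to the 44% of all probe sets tested. Of those higher, Rhbdf1 and Cnih1 lost their call under 13 and 4 of 22 alternative settings. Adam12 lost its call under 14 of the 21 settings in which it was tested.

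**Figure D4:**
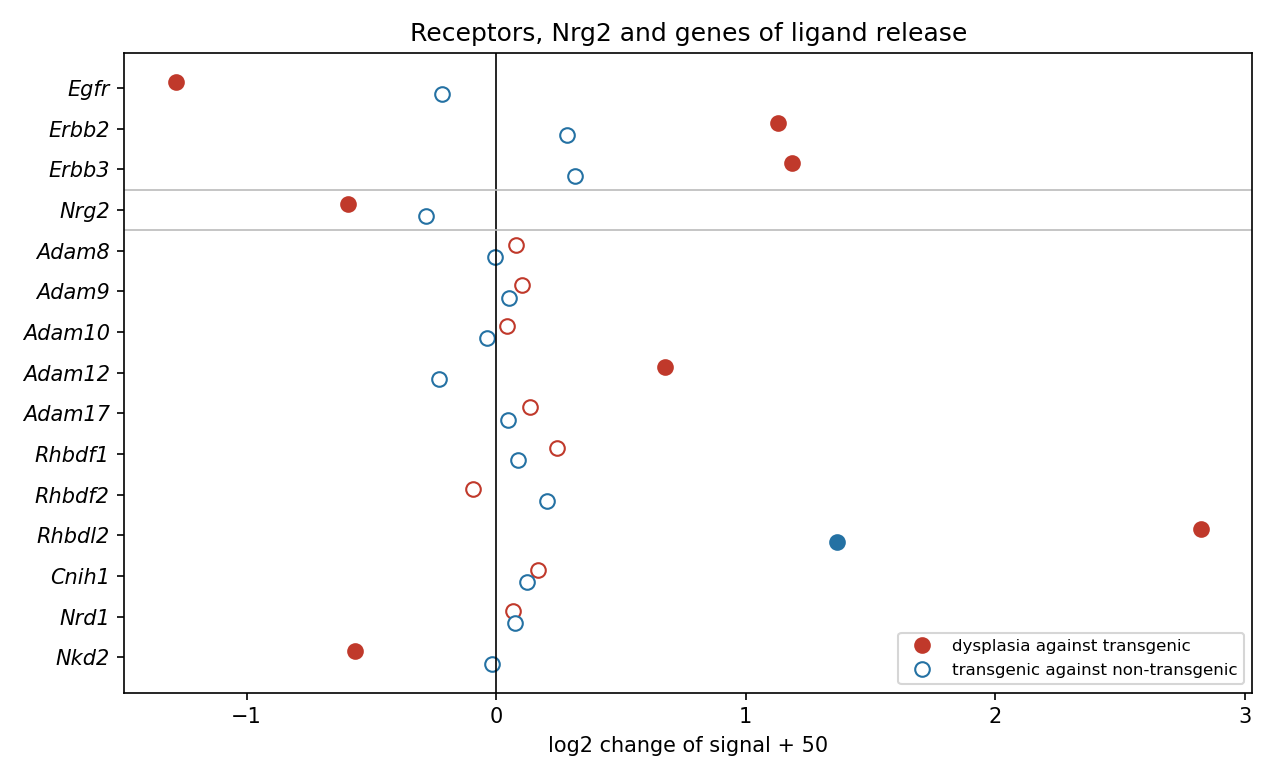
Change of log2(signal + 50) of the 3 tested receptors, of Nrg2 and of 11 genes of ligand release and transport, for dysplasia against transgenic (red) and transgenic against non-transgenic (blue); filled points passed an adjusted p of 0.05 in limma, n = 5 arrays a group. Rhbdl2 is filled in both comparisons, Egfr lies at -1.28 and Erbb2 and Erbb3 at 1.13 and 1.18 in dysplasia.

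Of 17 feedback and output genes of the Erk pathway, which lies below these receptors, 16 were tested and 13 were higher in dysplasia than in transgenic tissue, 1 was lower and 2 were not called, beside 15.3% higher and 17.9% lower over all probe sets tested. The median log2 change was 0.95, beside -0.01 over all probe sets tested. Among the 13 the transcription factor Etv4 entered the tests only through dysplasia: it had means of 313 ± 24.0 there, 8.89 ± 2.74 in unaltered tissue and 5.94 ± 0.98 in non-transgenic lung, near background. The Erk phosphatases Dusp5 and Dusp6 rose by 1.96 and 1.01 (limma, adjusted p = 0.00302 and 7.72e-05), and Errfi1, an inhibitor that binds Egfr itself, rose by 0.73 (adjusted p = 0.0440). Ier3 fell by 1.17 (adjusted p = 3.00e-05). Between transgenic and non-transgenic tissue none of the 16 was called, where the largest, Egr1, stood at 0.66 (adjusted p = 0.50). The transgene c-raf-1 also lies below these receptors, and the part of the ligands in these changes was not tested.

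Areg, Ereg, Btc and Epgn lie next to each other on chromosome 5, in the order Epgn, Ereg, Areg, Btc in the RefSeq gene table of GRCm38.p6. The 3 genes on either side were looked at as well, chosen after values were seen. Parm1, a mucin-like membrane protein and the gene next to Btc, had means of 2605 ± 710 in dysplasia, 323 ± 84.2 in unaltered tissue and 329 ± 20.5 in non-transgenic lung on 1428891_at. It was 8.05-fold higher in dysplasia than in transgenic tissue (log2 change 2.83; limma, adjusted p = 3.56e-06) and stood at -0.05 between transgenic and non-transgenic tissue, where Areg and Ereg were called. On the other side, the neutrophil chemokine Cxcl1 was higher in dysplasia on 2 of its 3 probe sets, and Cxcl2 was dim. Mthfd2l, which lies beside Epgn, was called on 1 of its 3 tested probe sets, at 0.52, and stood at 0.10 and 0.13 on the others. Rchy1, which follows Parm1, stood at 0.41 and was not called (adjusted p = 0.0633), and Odaph had no probe set.

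**Figure D5:**
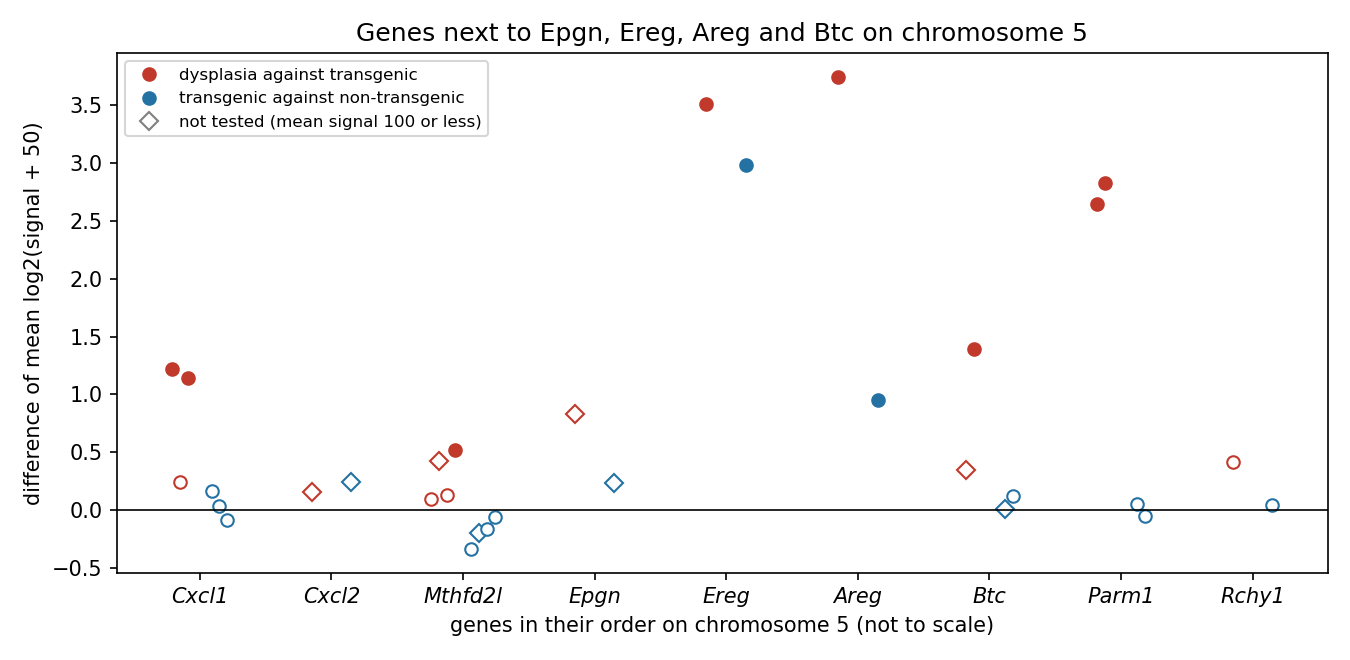
Difference of mean log2(signal + 50) for each probe set of the genes around Ereg and Areg, in their order on chromosome 5 and not to scale, for dysplasia against transgenic (red) and transgenic against non-transgenic (blue), n = 5 arrays a group. Filled circles passed an adjusted p of 0.05, open circles did not, and diamonds were not tested; Ereg, Areg and Parm1 stand highest in red, and only Ereg and Areg are filled in blue.

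The genes whose log2 signal was most like that of a ligand over the 15 arrays were taken by Pearson's r, as a description. For Areg they were Myo5b, Foxp2 and Mrpl32, with r from 0.992 to 0.993. For Ereg they were St8sia6, Cd177 and Cldn2, with r from 0.988 to 0.994. For Btc they were Mrpl32, Ccdc83 and Kcnk2, and for Tgfa Rab15, Pla2g1b and Kcnk1, with r from 0.978 to 0.989. The arrays form separate groups, and with each array taken as its deviation from its group mean the r of these 12 pairs fell to between 0.354 and 0.773. The genes most like Hbegf 1418350_at, Ccnd1, Spred1 and Sdc4, had r from 0.979 to 0.983 over the arrays and 0.971 to 0.981 for the deviations, in which the arrays share their number and actin ratio. Among the ligands themselves, Areg and Btc had r of 0.986 over the 15 arrays and 0.731 for the deviations, and Areg and Ereg 0.950 and 0.313.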

How the data were processed

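Total RNA of 15 laser-microdissected lung samples was amplified, labelled and hybridised to 15 Affymetrix mouse genome arrays. The deposited values are intensity on a linear scale: the authors used GCOS, version not given in the sources used here, with 1 signal per probe set and each array scaled to a target of 500. With 2% of values trimmed at either end, each array was checked to average 500, and 0 values were missing. Detection calls and array scans were not used here, and precision is limited by the number of arrays.

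After 64 control probe sets were left out, 45037 of 45101 remained, of which the array annotation gave 34945 a single gene symbol, 932 several and 9160 none. The 10 ligand probe sets were taken by gene symbol, and Areg's by its name in the supplementary tables. Probe sets with a mean signal above 100 (21658) were fitted as log2(signal + 50) with limma 3.58.1 in R 4.3.3, unpaired as in the study's methods, on the 10 arrays of each comparison, with Benjamini-Hochberg adjustment over all of them and a threshold of 0.05. The fit was tested on simulated data. The brightest tested probe set stood for a gene in lists. The members, gene lists, rules and alternatives were chosen with earlier results of these data known. The named genes are all members, the genes of the lists and the 3 genes most like each member; the neighbours on chromosome 5 were added after their values were seen.

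The transgenic mice gave dysplastic and unaltered tissue alike, but no source says that an array number marks a mouse. For number 4 the sex transcripts disagreed: dysplasia 4 read 9674 for Xist and 495 for Eif2s3y, whereas transgenic 4 read 85.0 and 1567. This pair was kept in the counts, ratios and block fit by number. Same-number arrays of dysplasia and transgenic tissue had a mean correlation of their deviations from the group means of 0.612 (lowest 0.219), transgenic and non-transgenic arrays 0.452 (lowest 0.135) and dysplasia and non-transgenic arrays 0.405 (lowest -0.00). In each of these the lowest pair was number 4, and in the first and second every pair was above 0.1. The array most like a given array carried its own number for 10 of 10 arrays in the first, but for 4 of 10 in the second and 5 of 10 in the third. Transgenic and non-transgenic arrays come from different mice, so a shared number there does not pair tissues of 1 mouse. What the numbers share was not tested. The values given are from the unpaired fit unless a block is named. Alternatives changed the offset, the normalization, the signal limit, the samples fitted, the variance moderation and the covariates, used the number as a block, or left out arrays.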

Additional observations from a re-analysis of the deposited data

Results flagged for a closer look

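Of 30 groups of 5 signals, 3 for each ligand probe set, 2 held an array far from the others by Dixon's ratio; chance alone gives about 1 in 20. Both were on dim, untested Tgfa probe sets and on the same array. The signal of non-transgenic 5 was 42.7 on 1450421_at (ratio 0.824, critical value 0.710) and 26.2 on 1421942_s_at (ratio 0.721), in both cases the lowest of its group. On the tested Tgfa probe set that array read 520, inside the range of its group.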

How the results depend on the processing

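In dysplasia against transgenic tissue and against non-transgenic tissue, Areg, Ereg, Btc, Tgfa and Hbegf 1418349_at kept direction and call under all 23 and 22 alternatives. Hbegf 1418350_at kept its direction there but lost its call under 10 and 9 of them. Against transgenic tissue these were no signal limit (adjusted p = 0.0681), all groups in 1 fit (0.0562), male mice only (0.119), without number 4 (0.107), and without dysplasia 1 (0.0902), 2 (0.0869) or 4 (0.0560) or transgenic 3 (0.0896), 4 (0.0803) or 5 (0.0905). Against non-transgenic tissue they were no signal limit (0.0648), Xist as a covariate (0.132), without number 4 (0.116), and without dysplasia 1 (0.0926), 2 (0.0847) or 4 (0.0566) or non-transgenic 3 (0.0835), 4 (0.0875) or 5 (0.0860). Its value between transgenic and non-transgenic tissue, never called, turned to -0.32 with Xist as a covariate, and leaving out 1 array gave -0.13 to 0.45.

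The number of probe sets called in dysplasia against transgenic tissue was 4662 in male mice only, an alternative chosen after seeing the data with 3 and 4 arrays, and 6085 to 7200 with 1 array left out, against 7192. Against non-transgenic tissue leaving out 1 array gave 8461 to 9532 and 5 to 6 ligand probe sets, as it did against transgenic tissue. In transgenic against non-transgenic tissue the count of 272 became 110 with Xist as a covariate, 506 with the actin ratio, 81 without number 4 and 118 to 291 with 1 array left out, and the ligand probe sets called fell from 2 to 1 with Xist and without number 4, and were 1 to 2 with 1 array left out. The cause was not tested.

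With the array number as a replicate block 10661, 10741 and 329 probe sets were called, against 7192, 9523 and 272, and no call of a ligand changed. The offset set the size of changes over dim bases, as for Ereg.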
